A study of Mus musculus with 2 samples.

Results

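*Scx*, *Mkx*, *Tnmd*, *Chodl*, *Tac1* and *Tnc* are 6 genes linked with tendons and ligaments, out of the 27514 genes that the gene lists of the E15.5 and E17.5 libraries of the mouse coronal suture share. They were chosen by their level in 1 cluster of these same cells, the one named LIG, as earlier work on these data had found it. Their height in LIG is therefore part of the choice and is given as a description, with no test.

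Tendons and ligaments are cords of aligned collagen fibres that join muscle to bone or bone to bone, and their cells are set apart early by the transcription factors scleraxis (*Scx*) and Mohawk (*Mkx*). Tenomodulin (*Tnmd*) is a membrane protein of mature tendon cells whose gene is switched on downstream of scleraxis in tendons, and tenascin C (*Tnc*) is a glycoprotein of the matrix of tendons and of growing bone. In the skull vault, a suture is the fibrous joint in which bone plates meet, and the coronal suture lies between the frontal and the parietal bones.

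All embryos were wild-type mice of the strain that the sample labels write as C57/BL6. The E15.5 library came from 10 pooled sutures that were digested with collagenase II and dispase for 45 min and then depleted of dead cells with a kit. The E17.5 library joins 3 batches from 2 litters, with 10, 3 and 3 pooled sutures, that were digested with collagenase IV for 30 min and sorted by FACS. Single cells were captured with the 10x 3′ v2 chemistry, and the E17.5 batches were made into libraries separately and joined into 1 matrix, called the E17.5 library here. E15.5 has no replicate, and stage, enzyme, sorting, embryos and sequencing site cannot be told apart. The 2 matrices also list different genes, 31053 and 27998, and the E15.5 file header names a later Cell Ranger version than the authors' methods, so counting may differ as well.

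The authors' table assigns cells to 15 clusters, which they group as ectocranial (EC1 to EC4 and LIG), osteogenic (OG1 to OG4, PO1 and PO2) and meningeal (MG1 to MG4). Of the 15384 barcodes of the E15.5 matrix 5335 have a label (5 more cells of the table are absent from it), with 48607817 UMIs (unique molecular identifiers, each a counted transcript) and a median of 8510 per cell. Of the 9326 barcodes of the E17.5 matrix 6830 have one, with 92585034 UMIs and a median of 12301.5. LIG holds 497 cells in the E15.5 library and 675 in that of E17.5, of which 32, 314 and 329 carry barcode suffix 1, 2 and 3. No source says which suffix is which batch. The 2 matrices share 190 barcode sequences, of which 42 have a label in both, and 43 sequences (25 labelled) occur under more than 1 suffix. The UMI total of a cell equals that in the authors' table in 6830 E17.5 cells and in 0 E15.5 cells, where the table has a median of 11513, so the E15.5 labels and the E15.5 counts used here do not come from the same count table.

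A level is the UMIs of a gene summed over the cells of a cluster, divided by all UMIs of those cells and given as counts per mega-count (CPM). Brackets hold exact Poisson 95% intervals for levels, exact conditional ones for ratios and exact binomial (Clopper-Pearson) ones for shares. All 3 kinds cover counting error only, not differences between embryos. Those for levels and ratios take each UMI as independent, so they leave out spread between the cells of a group and can be too narrow. A fold is the level in LIG over that in all other labelled cells of the library, and genes are called high in LIG where it reached 2 in both libraries. The comparison covers the 12150 genes with at least 50 UMIs over the labelled cells of each library, among them all 6 genes described here.

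*Mkx*, *Tnmd*, *Chodl* and *Tac1*, 4 of the 6 genes, were called high in LIG, as were 92 of the 12150 genes (0.757%). Nothing is read from that count, since this contrast chose the genes. By the lower of the 2 folds *Chodl* ranked 1, *Tnmd* 3, *Tac1* 5, *Mkx* 17, *Scx* 93 and *Tnc* 513. *Scx* lay just outside the limit, with a fold of 1.99 at E15.5, and *Mkx* was the nearest inside it, with 3.39 at E17.5. *Scx* joined the called genes, making 5, where the median of the other clusters replaced their pool, where the limit was 1.5, and where barcodes found more than once were left out, the last an alternative chosen after seeing the data. Against the highest of the other 14 clusters, chosen likewise, only 2 of the 6, *Tac1* and *Chodl*, reached 2-fold in both libraries. The name tendon and ligament genes thus did not set LIG apart for every gene. *Scx* was highest in the meningeal cluster MG2 and *Tnc* in the osteogenic cluster OG3 in both libraries, and *Tnmd* was highest in the meningeal cluster MG1 at E17.5.

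**Figure D1:**
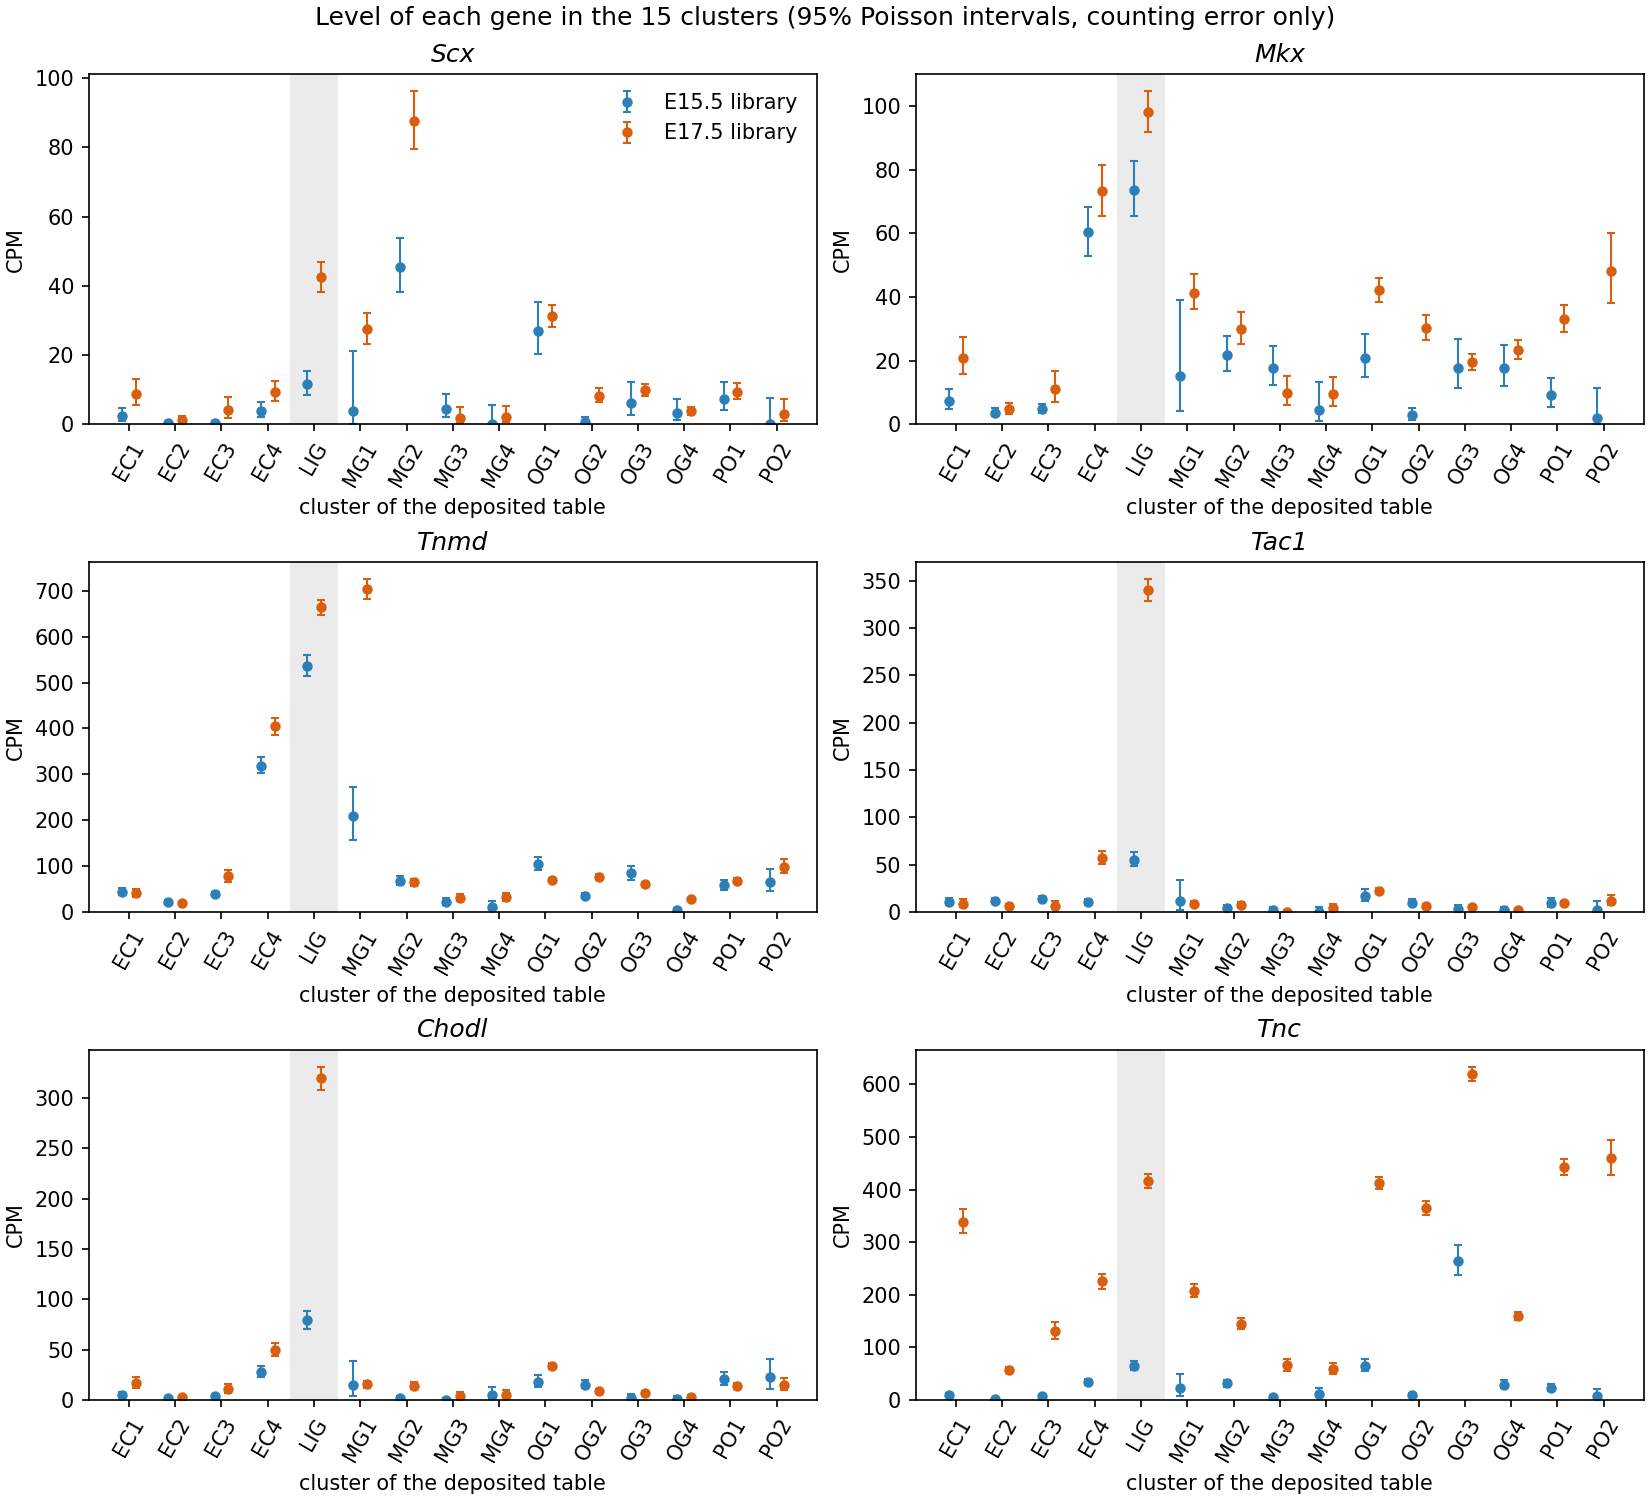
Level of each of the 6 genes in CPM (vertical axis, a separate linear scale per gene) in the 15 clusters (horizontal axis, LIG shaded). Points are the E15.5 and E17.5 libraries with 95% Poisson intervals, and *Tac1* and *Chodl* stand out in LIG, at 339.8 and 319.5 CPM at E17.5, while *Scx* peaks in MG2 (87.6 CPM) and *Tnc* in OG3 (620.1 CPM).

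*Scx* (ENSMUSG00000034161) encodes scleraxis, a basic helix-loop-helix (bHLH) transcription factor of tendon progenitors. Its level in LIG was 11.5 CPM (8.44 to 15.4) from 46 UMIs in the E15.5 library and 42.5 CPM (38.4 to 46.9) from 391 UMIs in that of E17.5. By suffix, the E17.5 level was 47.1 (27.0 to 76.6), 42.65 (36.6 to 49.4) and 42.0 CPM (36.3 to 48.2) for suffix 1, 2 and 3. The E17.5 suffixes overlapped each other, and all lay above the E15.5 interval. The LIG fold was 1.99 (1.42 to 2.73) in the E15.5 library and 2.64 (2.35 to 2.95) in that of E17.5. With each cell thinned to 3000 UMIs the fold was 1.04 and 1.82, and against the median of the other clusters it was 3.23 and 5.03. It thus crossed 2 with the way of counting, and at E15.5 only 1.66% of thinned LIG cells carried a *Scx* UMI.

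The highest *Scx* level was that of MG2, with 45.5 CPM (38.1 to 53.8) in the E15.5 library and 87.6 (79.5 to 96.3) in that of E17.5. At E15.5 OG1 (27.0) came next, then LIG, PO1 (7.35), OG3 (6.18), MG3 (4.58), EC4 (3.91), MG1 (3.82), OG4 (3.32), EC1 (2.28), OG2 (0.731), EC3 (0.373), EC2 (0.326) and, with 0 UMIs, MG4 and PO2. The floor for these 0 counts, the level that 3 UMIs would give, was 4.515 CPM in MG4 and 6.20 in PO2, and the 2-sided Poisson intervals reach 5.55 and 7.62. The steps from MG2 to OG1 and from OG1 to LIG exceeded the intervals, and no later neighbours differed beyond them.

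At E17.5 the order of *Scx* was MG2, LIG (42.5), OG1 (31.2), MG1 (27.4), OG3 (9.86), PO1 (9.49), EC4 (9.35), EC1 (8.70), OG2 (8.20), EC3 (4.06), OG4 (3.72), PO2 (3.09), MG4 (2.11), MG3 (1.96) and EC2 (1.26). Here 3 of the 14 steps exceeded the intervals: MG2 to LIG, LIG to OG1 and MG1 to OG3. In MG2 the suffixes gave 62.2 (49.7 to 77.0), 98.8 (84.1 to 115.3) and 96.5 CPM (82.9 to 111.7). Suffix 1 was lower than the others there, and its interval overlapped that of LIG for the same suffix.

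The *Scx* gene spans chr15:76457452-76459458 on the plus strand of GRCm38 and lies inside *Bop1*, a ribosome biogenesis gene on the minus strand at chr15:76452989-76477277, with none of its 3 annotated exons touching an exon of *Bop1*. *Bop1* had 7.52 and 17.48 CPM in LIG against 12.9 and 22.5 CPM in all other cells at E15.5 and E17.5, so it was not higher in LIG. Whether the counting used strand is not given in the sources used here.

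*Mkx* (ENSMUSG00000061013) encodes Mohawk, a homeodomain transcription factor of tendon cells in the family of the Iroquois factors. In LIG it reached 73.7 CPM (65.5 to 82.6) from 294 UMIs in the E15.5 library and 98.2 CPM (91.9 to 104.8) from 904 UMIs in that of E17.5. The suffixes gave 112.0 (79.2 to 153.7), 104.0 (94.4 to 114.3) and 92.2 CPM (83.7 to 101.2). All 3 overlapped each other. Suffix 2 and 3 lay above the E15.5 interval, and suffix 1, from 32 cells, overlapped it. The LIG fold was 5.57 (4.83 to 6.42) and 3.39 (3.14 to 3.67).

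LIG had the highest *Mkx* level in both libraries and the ectocranial cluster EC4 the next, with 60.3 CPM (53.0 to 68.35) in the E15.5 library and 73.2 (65.5 to 81.6) in that of E17.5. At E15.5 the intervals of LIG and EC4 overlapped. Only the step from EC4 to MG2 (21.9) exceeded the intervals there, and OG1 (20.8), MG3 (17.8), OG3 (17.8), OG4 (17.7), MG1 (15.3), PO1 (9.30), EC1 (7.48), EC3 (4.85), MG4 (4.515), EC2 (3.69), OG2 (2.925) and PO2 (2.065) followed without a clear step. At E17.5 LIG stood above EC4 and EC4 above PO2 (48.2) beyond the intervals. OG1 (42.2), MG1 (41.4), PO1 (33.15), OG2 (30.3), MG2 (29.95), OG4 (23.3), EC1 (20.96) and OG3 (19.5) came next, and after 1 more clear step EC3 (11.2), MG3 (9.80), MG4 (9.48) and EC2 (4.78). The EC4 suffixes gave 78.8 (64.0 to 96.0), 62.9 (51.9 to 75.6) and 81.4 CPM (67.3 to 97.5), and for suffix 1 and 3 these intervals overlapped those of LIG.

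The *Mkx* gene lies at chr18:6934518-7004780 on the minus strand. A gene on the same strand touches 1 of its 13 annotated exons but is absent from both gene lists. Between the libraries, the *Mkx* level was higher at E17.5 in 10 of the 15 clusters by the interval of the ratio and lower in 1, MG3.

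*Tnmd* (ENSMUSG00000031250, chrX:133850980-133865577, plus strand) encodes tenomodulin. Its LIG level was 536 CPM (513 to 559) from 2137 UMIs in the E15.5 library and 664 CPM (647 to 681) from 6112 UMIs in that of E17.5. The suffixes stood apart, with 380.1 (317 to 452), 703 (677 to 729) and 650.3 CPM (628 to 674). Suffix 1 lay below the E15.5 library, and suffix 2 and 3 lay above it without overlapping each other. The LIG fold was 7.93 (7.503 to 8.39) in the E15.5 library and 5.68 (5.50 to 5.87) in that of E17.5, and against the median of the other clusters the E17.5 value was 9.98.

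At E15.5 the *Tnmd* levels fell in clear steps from LIG to EC4 (319, 302 to 337), MG1 (210.0, 158 to 273) and OG1 (105.6, 91.55 to 121). OG3 (84.25), MG2 (67.7), PO2 (66.1), PO1 (59.25), EC1 (43.6), EC3 (40.0) and OG2 (35.8) followed without a clear step, and after such a step EC2 (23.1), MG3 (22.4), MG4 (12.0) and OG4 (5.53) were lowest. At E17.5 MG1 (704, 682 to 726) was above LIG and LIG above EC4 (404, 386 to 423), each beyond the intervals. After the next clear step came PO2 (99.4), EC3 (78.7), OG2 (76.9), OG1 (70.3), PO1 (68.4), MG2 (64.7) and OG3 (61.5), then EC1 (41.1), MG4 (32.1), MG3 (30.4) and OG4 (28.5), and last EC2 (19.4). MG1 had 28 cells in the E15.5 library and 423 in that of E17.5, none of which carried suffix 1. In suffix 2 MG1 (708, 675 to 742) and LIG overlapped, and in suffix 3 MG1 (700.1, 671 to 730.4) overlapped LIG (650.3, 628 to 674) by the ends of the intervals only. Within each suffix that held both clusters, MG1 and LIG were thus not apart beyond the intervals. EC4 was also lower in suffix 1 (273, 245 to 304) than in suffix 2 (468) and 3 (438).

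*Chodl* (ENSMUSG00000022860, chr16:78930948-78951733, plus strand) encodes chondrolectin, a membrane protein with a C-type lectin domain known from motor neurons and from muscle. Its LIG level was 79.5 CPM (71.0 to 88.7) from 317 UMIs in the E15.5 library and 319.5 CPM (308 to 331) from 2942 UMIs in that of E17.5. The suffixes gave 253 (203 to 313), 329 (311 to 347) and 316 CPM (300.5 to 333). All 3 lay above the E15.5 interval, with suffix 1 the lowest and its interval touching those of the others. The LIG fold was 9.96 (8.53 to 11.6) and 22.1 (20.7 to 23.7). In suffix 1 alone it was 13.7, and against the median of the other clusters the E15.5 value was 16.9.

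No other cluster came near LIG in *Chodl*. EC4 was second, with 27.85 CPM (23.0 to 33.5) in the E15.5 library and 50.1 (43.8 to 57.1) in that of E17.5. At E15.5 EC4 was followed without a clear step by PO2 (22.7), PO1 (20.6), OG1 (18.2), OG2 (15.4), MG1 (15.3), EC1 (4.88), MG4 (4.515) and EC3 (4.10), and after such a step by EC2 (1.74), MG2 (1.685), OG3 (1.55), OG4 (1.105) and MG3, which had 0 UMIs (floor of 3 UMIs at 1.53 CPM). At E17.5 OG1 (33.55, 30.3 to 37.0) came next, apart from its neighbours. EC1 (17), MG1 (15.4), PO2 (14.8), MG2 (14.05), PO1 (13.75), EC3 (10.7), OG2 (8.70), OG3 (7.375), MG4 (5.265), MG3 (3.92), OG4 (3.33) and EC2 (2.52) followed, each overlapping its neighbour.

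*Tac1* (ENSMUSG00000061762, chr6:7554879-7565834, plus strand) encodes the precursor of the neuropeptides substance P and neurokinin A, best known from sensory nerves. Its LIG level was 55.4 CPM (48.3 to 63.2) from 221 UMIs in the E15.5 library and 339.8 CPM (328 to 352) from 3129 UMIs in that of E17.5. The suffixes gave 427 (360.5 to 503), 353 (335 to 371.5) and 322 CPM (306 to 339). Suffix 1 was the highest and did not overlap suffix 3, and all 3 stood far above the E15.5 library. The LIG fold was 5.34 (4.53 to 6.28) and 29.7 (27.6 to 32.0). In suffix 1 alone it was 48.6, and against the median of the other clusters the E17.5 value was 45.6.

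At E15.5 only the step from LIG to the next cluster, OG1 (17.2), exceeded the intervals for *Tac1*. EC3 (14.4), EC2 (12.2), MG1 (11.45), EC1 (10.7), EC4 (10.3), OG2 (9.99), PO1 (9.79), MG2 (4.04), OG3 (3.09), OG4 (2.21), PO2 (2.065), MG3 (2.035) and MG4 followed, the last with 0 UMIs (floor of 3 UMIs at 4.515 CPM). At E17.5 EC4 (57.4, 50.6 to 64.9) and OG1 (22.7, 20.05 to 25.5) came next, each apart from its neighbours. PO2 (11.7), PO1 (9.35), EC1 (9.095), MG1 (8.90), MG2 (7.85), EC2 (7.045), OG2 (6.68), EC3 (6.60), OG3 (5.43), MG4 (4.21), OG4 (2.57) and MG3 (0.490) then overlapped from neighbour to neighbour. The level was higher at E17.5 beyond the interval of the ratio in LIG and in EC4, where it went from 10.3 to 57.4 CPM, a ratio of 5.60 (4.03 to 7.95). In EC4 suffix 2 was higher (75.6, 63.5 to 89.4) than suffix 1 (42.6, 31.9 to 55.7) and 3 (47.3, 36.7 to 59.96), with all 3 above E15.5. Of the other 13 clusters, EC2 and EC3 had lower levels at E17.5 and 11 had ratios whose intervals hold 1. Among the 11, PO2 had a ratio of 5.68 (0.903 to 236) from 1 and 19 UMIs, MG2 1.94 (0.993 to 4.08) and MG4 0 and 8 UMIs. MG1 had 0.777 (0.251 to 3.90), OG3 1.76 (0.657 to 6.63), OG4 1.16 (0.406 to 4.58) and MG3 0.241 (0.00489 to 2.43). For none of the 11 does an interval that holds 1 show that the level was the same. The differences in ratio between clusters were not tested.

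*Tnc* (ENSMUSG00000028364, chr4:63959785-64047015, minus strand) encodes tenascin C. Its LIG level was 64.9 CPM (57.3 to 73.3) from 259 UMIs in the E15.5 library and 417 CPM (404 to 430.3) from 3839 UMIs in that of E17.5. The suffixes gave 368 (307 to 439), 427 (407.5 to 448) and 411 CPM (393 to 430.1) and overlapped each other, all far above the E15.5 library. The LIG fold fell short of the limit at E17.5, being 2.96 (2.57 to 3.40) in the E15.5 library and 1.33 (1.29 to 1.38) in that of E17.5. A gene on the other strand touches 1 of the 28 annotated exons of *Tnc* and is in neither gene list.

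The order of *Tnc* placed LIG at rank 3 in the E15.5 library and rank 4 in that of E17.5. OG3 was highest, with 264 CPM (237 to 294) and 620.1 (607 to 634), clear of all others. At E15.5 OG1 (65.5) and LIG overlapped, and after a clear step came EC4 (33.7), MG2 (31.7), OG4 (29.3), MG1 (22.9), PO1 (22.5), MG4 (12.0), EC1 (9.10), OG2 (9.02), PO2 (8.26), EC3 (6.99) and MG3 (5.09), with EC2 (1.30) apart at the end. At E17.5 PO2 (459), PO1 (444), LIG and OG1 (412) overlapped from neighbour to neighbour. OG2 (365.5) and EC1 (339) came next, then EC4 (225.5) and MG1 (208), then OG4 (159), MG2 (145), EC3 (131), and last MG3 (66.15), MG4 (59.0) and EC2 (57.4), each set separated from the one before it by a clear step. In OG3 the suffixes lay within 603 to 633 CPM.

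Background from free RNA was gauged in myeloid-like cells, which should lack these genes and which the authors' table leaves out. They were 395 cells with a median of 8803 UMIs in the E15.5 library and 482 with a median of 9570.5 in that of E17.5, against 7115 and 12300 in LIG. At E15.5 a *Scx* UMI was found in 6.84% of LIG cells (4.78 to 9.43) against 1.27% of myeloid-like cells (0.412 to 2.93), and in thinned cells in 1.66% (0.719 to 3.24) against 0.262% (0.00663 to 1.45). At E17.5 the *Scx* shares were 30.1% and 1.45%, or 9.33% and 0.2075% in thinned cells. Thinning left out 15 LIG cells and 13 myeloid-like cells in the E15.5 library and 0 in that of E17.5. The thinned E15.5 intervals of *Scx* overlapped, so at equal depth *Scx* could not be set apart from background in LIG at E15.5, although its CPM there was above the 1.85 CPM (0.744 to 3.81) of the myeloid-like cells.

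For the other 5 genes the LIG share stood above background in both libraries at either depth. At E15.5 the shares of LIG cells with a UMI were 37.8% for *Mkx* (18.9% thinned), 81.1% for *Tnmd* (63.9%), 32.0% for *Chodl* (17.8%), 17.9% for *Tac1* (11%) and 27.0% for *Tnc* (12.45%). Those of the myeloid-like cells were 2.025% (0.785%), 5.57% (2.09%), 1.01% (0.262%), 2.28% (1.31%) and 3.80% (1.05%) in the same order. Detection per cell at E15.5 thus covered most LIG cells for *Tnmd* only.

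At E17.5 the LIG shares were 68.0% for *Mkx* (28.15% thinned), 93.6% for *Tnmd* (75.7%), 82.1% for *Chodl* (53.9%), 70.7% for *Tac1* (47.6%) and 93.0% for *Tnc* (64.3%). The myeloid-like shares were 3.53% (0.415%), 12.7% (3.94%), 2.49% (0.622%), 4.15% (0.830%) and 41.5% (12.7%). *Tnc* alone had a high share in cells that should lack it, where its level was 4.50 CPM (2.62 to 7.20) in the E15.5 library and 54.0 CPM (47.8 to 60.9) in that of E17.5. The E17.5 level of *Tnc* in EC2, MG3 and MG4 had intervals that overlapped this background.

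Within LIG, 4 of the 6 genes had an E17.5 level at least 2-fold the E15.5 level, where 541 of 10112 genes measured in LIG cells (5.35%) did. The ratios were 6.42 (5.66 to 7.31) for *Tnc*, 6.13 (5.35 to 7.06) for *Tac1*, 4.02 (3.58 to 4.53) for *Chodl* and 3.68 (2.71 to 5.11) for *Scx*, at ranks 89, 95, 152 and 171. *Mkx* and *Tnmd* stayed below 2, with 1.33 (1.17 to 1.525) and 1.24 (1.18 to 1.30), and the median over the genes was 0.986. The direction of *Tnmd* turned with the cells used: in suffix 1 alone the ratio was 0.7095 and in suffix 2 alone 1.31. The members were chosen with levels at both stages known, and the part of stage, enzyme, sorting, embryos and counting in these ratios cannot be told apart.

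**Figure D2:**
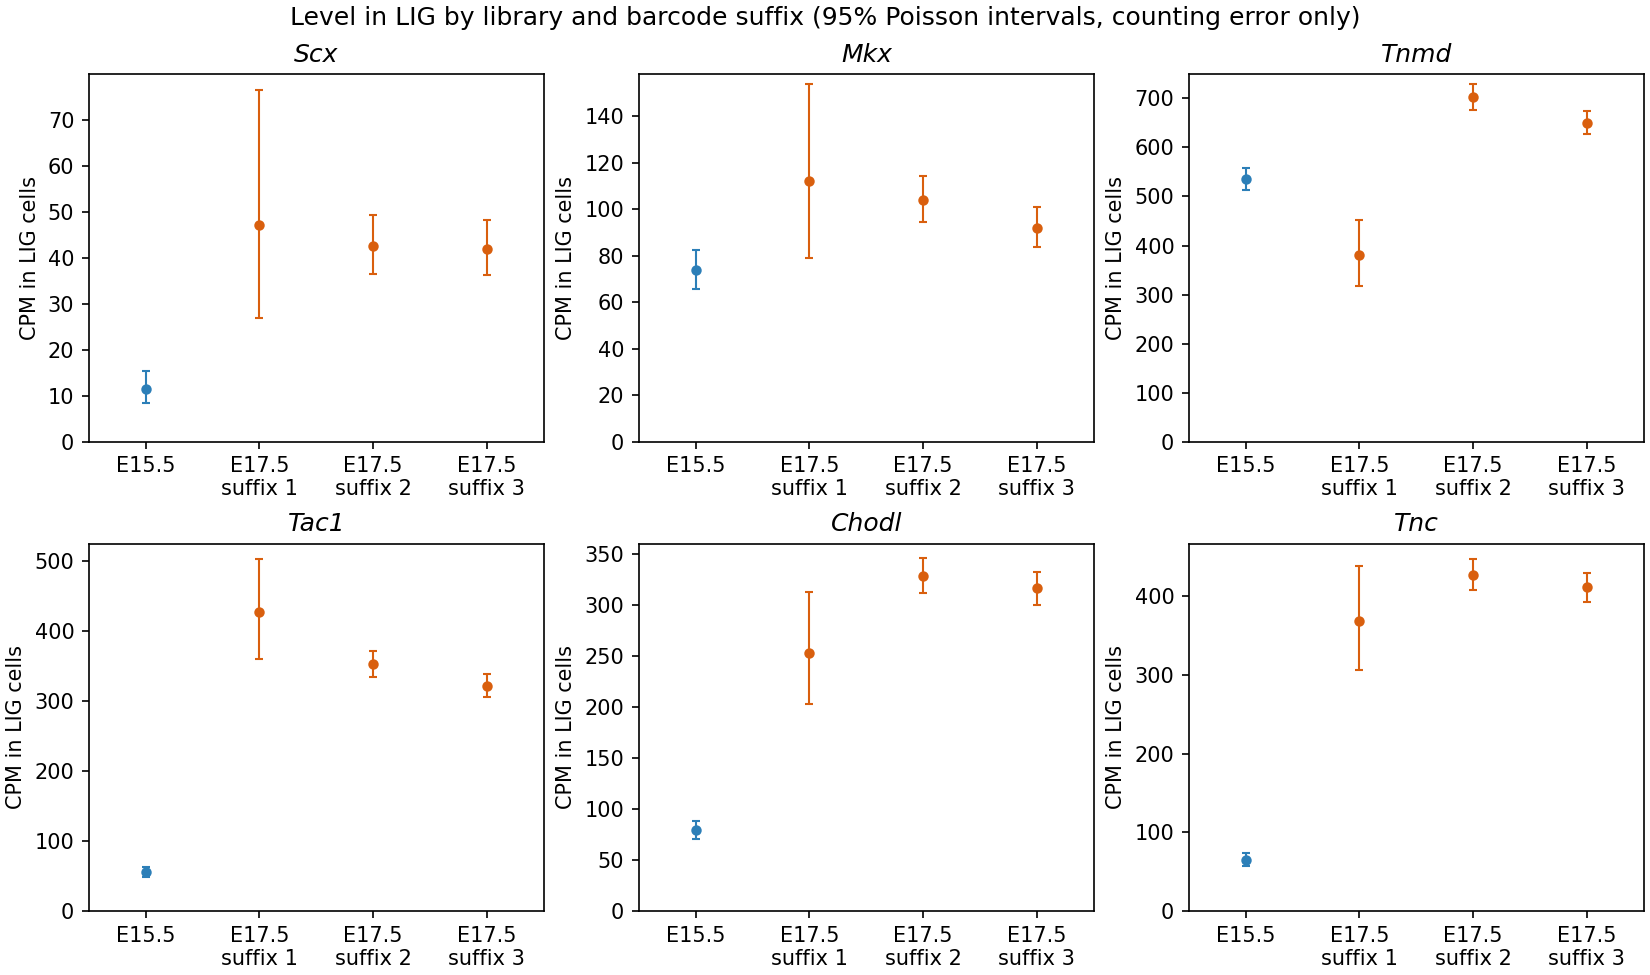
Level of each gene in LIG in CPM (vertical axis, from 0) in the E15.5 library and in each of 3 barcode suffixes at E17.5 (horizontal axis), with 95% Poisson intervals. *Tac1*, *Chodl*, *Tnc* and *Scx* lie above the E15.5 level in all 3 suffixes, whereas *Tnmd* in suffix 1 (380.1 CPM, 32 cells) lies below it.

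The difference between the libraries was not alike across clusters. *Tnc* was higher at E17.5 in all 15 clusters, as it was in the myeloid-like cells that gauge free RNA, from 2.35-fold in OG3 to 55.6-fold (21.6 to 204.6) in PO2, and the LIG ratio had rank 10 of the 15. Over all labelled cells its ratio was 12.7 (12.0 to 13.5). *Chodl* was higher at E17.5 in 8 clusters and lower in 2 by the intervals, *Tnmd* likewise in 8 and 2, *Scx* in 7 and 0, and *Tac1* in 2 and 2. The *Tac1* ratio of LIG had rank 2 among the clusters, after MG4, which had 0 UMIs at E15.5.

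Co-detection per cell was low in the E15.5 library and high in that of E17.5. At E15.5 169 of 497 LIG cells (34.0%, 29.8 to 38.4) had a UMI of at least 3 of the 6 genes, and at E17.5 641 of 675 (94.96%, 93.0 to 96.5). Thinned to 3000 UMIs, 52 of 482 (10.8%, 8.16 to 13.9) and 399 of 675 (59.1%, 55.3 to 62.85) did, so the gap between the libraries remained at equal depth. In myeloid-like cells the shares were 0.7595% in the E15.5 library and 1.45% in that of E17.5, and thinned 0.262% and 0 of 482, which allows a share of up to 0.762% by the exact interval. The E17.5 suffixes gave 93.75%, 96.2% and 93.9% of LIG cells, and thinned 56.25%, 62.1% and 56.5%. They did not differ beyond their intervals.

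**Figure D3:**
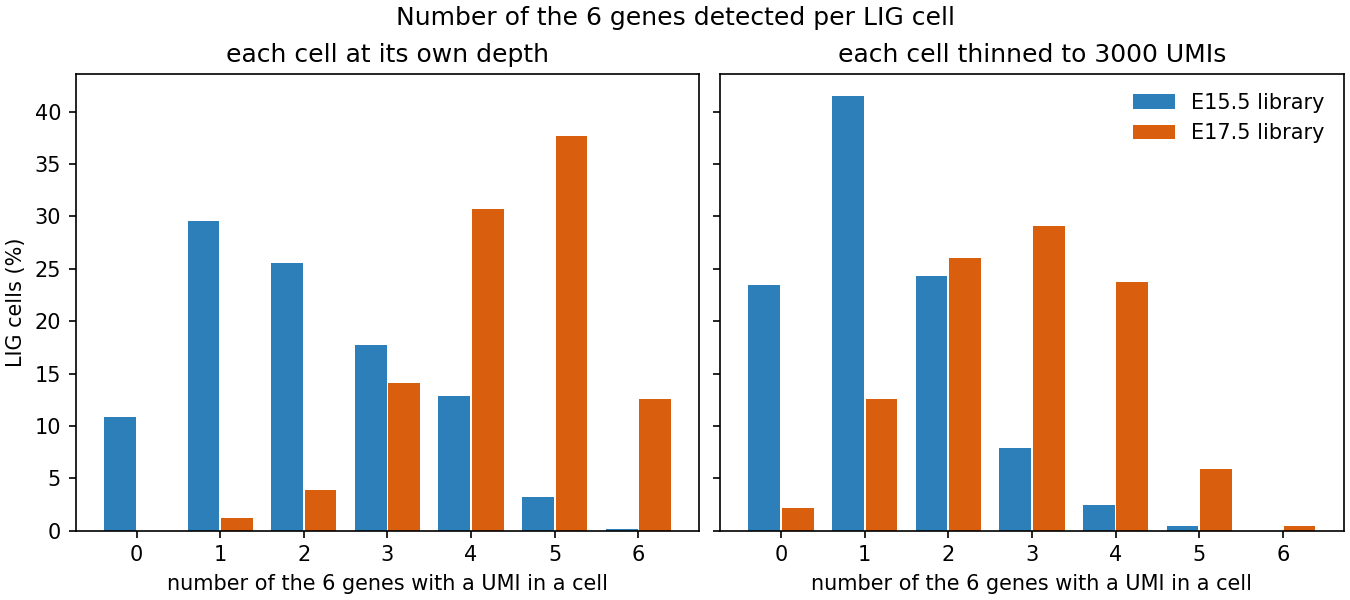
Percentage of LIG cells (vertical axis) by the number of the 6 genes with at least 1 UMI in the cell (horizontal axis), at each cell's own depth (left) and thinned to 3000 UMIs (right), for the E15.5 and E17.5 libraries. At own depth the most frequent number is 1 at E15.5 (29.6% of cells) and 5 at E17.5 (37.6%), and in thinned cells it is 1 and 3.

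The number of the 6 genes found in a LIG cell at its own depth was most often 1 at E15.5, in 147 cells, and 5 at E17.5, in 254 cells. All 6 were found in 1 LIG cell in the E15.5 library and in 85 in that of E17.5, and none of them in 54 and 0. In thinned cells 113 of 482 had none in the E15.5 library and 15 of 675 in that of E17.5, and all 6 were found in 0 and 3.

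Since *Tnc* was present in most clusters at E17.5, co-detection was also counted over the other 5 genes, a choice made after seeing the data. At least 3 of these 5 were found in 26.0% of LIG cells in the E15.5 library and 82.8% in that of E17.5, and in 7.05% and 38.4% of thinned cells. At their own depth the intervals of the other clusters lay below that of LIG in both libraries, and EC4 came next with 6.82% and 29.7%. In thinned cells OG1 came next at E15.5, with 2.15% (0.700 to 4.94) against 1.51% (0.609 to 3.08) in EC4, and EC4 at E17.5, with 4.05% (2.29 to 6.60). The thinned E15.5 interval of LIG, 4.93% to 9.72%, overlapped that of OG1 at its end, and those of MG1, MG4 and PO2, which had 0 of 27, 62 and 35 cells. At E17.5 the thinned interval of LIG (34.7% to 42.2%) was above all others. Since the genes were chosen by their level in LIG, its place above other clusters is part of the choice and is given as a description. At E17.5 MG1 had 17.7% and OG1 13.2%, or 2.60% and 1.09% thinned.

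With all 6 genes, the thinned share of cells with at least 3 was 3.23% in EC4 and 4.29% in OG1 at E15.5, and 11.35% in EC4 and 9.69% in MG1 at E17.5. At their own depth, the E17.5 shares of PO2 (57.9%), EC4 (54.3%), MG1 (50.35%), PO1 (40.8%) and OG1 (37.3%) were the next after LIG. PO2 and PO1 hold the deepest cells, with medians of 21847 and 19957 UMIs, and fell to 1.32% and 3.31% in thinned cells.

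**Figure D4:**
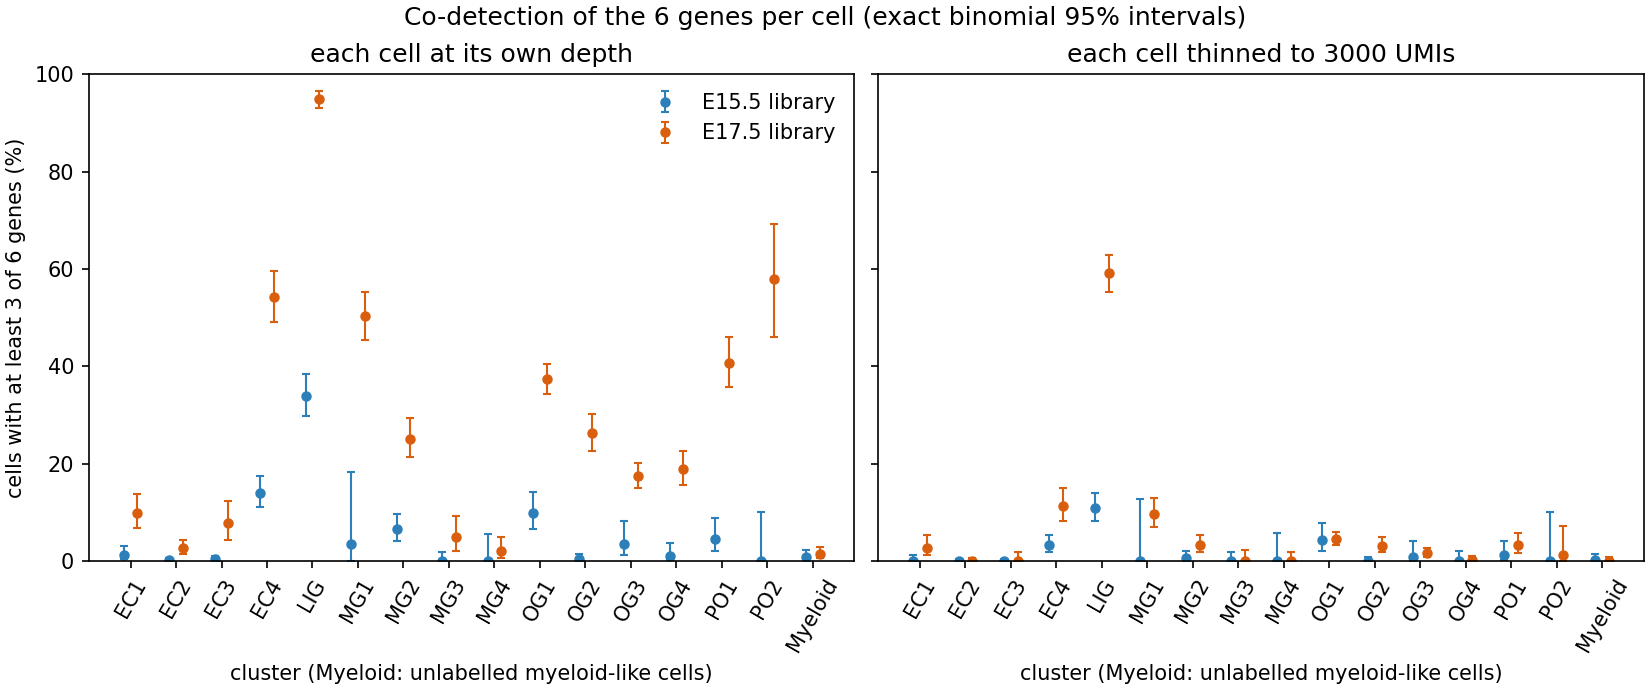
Percentage of cells with a UMI of at least 3 of the 6 genes (vertical axis) in each of the 15 clusters and in myeloid-like cells outside the authors' table (horizontal axis), at own depth (left) and thinned to 3000 UMIs (right), with exact binomial 95% intervals. At equal depth LIG holds 59.1% such cells at E17.5 and EC4, the next, 11.35%. The genes were chosen by their level in LIG.

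Pairs of the genes were compared in thinned LIG cells, where a shared dependence on depth is reduced. *Chodl* was found in 35.85% (23.1 to 50.2) of the 53 *Tac1*-positive cells and 15.6% (12.3 to 19.4) of the 429 negative ones at E15.5, and in 62.0% (56.4 to 67.3) of 321 and 46.6% (41.3 to 52.0) of 354 at E17.5. This was the only pair whose intervals did not overlap in both libraries. *Tnc* was found in 16.6% (12.6 to 21.2) of *Tnmd*-positive and 5.17% (2.39 to 9.59) of *Tnmd*-negative cells at E15.5, and in 67.1% (62.9 to 71.2) and 55.5% (47.5 to 63.2) at E17.5, where the intervals overlap at their ends. *Mkx* in *Tac1*-positive against negative cells was 34.0% against 17.02% in the E15.5 library and 28.7% against 27.7% in that of E17.5, and *Tnc* 28.3% (16.8 to 42.35) against 10.5% (7.755 to 13.8) and 63.9% against 64.7%. *Chodl* in *Tnmd*-positive against negative cells was 17.2% against 18.97% in the E15.5 library and 56.95% (52.5 to 61.3) against 44.5% (36.8 to 52.46) in that of E17.5. The intervals of these 3 pairs were apart in 1 library only, and with the condition turned round those of *Mkx* and *Tac1* and of *Chodl* and *Tnmd* overlapped there. *Scx* was found in 8 thinned LIG cells in the E15.5 library and 63 in that of E17.5, and at E17.5 no other gene differed beyond the intervals between cells with and without it.

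LIG cells also carried transcripts of contractile proteins of smooth muscle. All 6 smooth muscle markers had UMIs in LIG, with a summed level of 359.8 CPM against 180.5 in the other labelled cells in the E15.5 library and 1795 against 547 in that of E17.5. *Acta2*, smooth muscle actin, had 63.2 and 654 CPM in LIG against 45.05 and 217.9 in the other labelled cells, *Tagln*, transgelin, 37.6 and 543 against 25.2 and 131.7, and *Myl9*, a myosin light chain, 255 and 491 against 104.9 and 170.4. LIG had the highest level of all 3 in the E17.5 library, but at E15.5 *Acta2* was highest in OG1 (252 CPM) and *Tagln* in OG3 (112.9 CPM). The E17.5 levels rest on suffixes 2 and 3. In suffix 1 the LIG level of *Acta2* was 94.3 CPM (64.5 to 133), against 685 and 666 in the other 2. That of *Tagln* was 144 (107 to 191) against 540 and 574, and that of *Myl9* 247.5 (197 to 306) against 495 and 505. The other labelled cells of suffix 1 had 128, 74.2 and 101.9 CPM in the same order. Within suffix 1, LIG was thus higher for *Tagln* and *Myl9* but not for *Acta2*. *Cnn1*, calponin, had LIG folds of 0.403 (0.108 to 1.06), from 4 UMIs, and 4.14. The defining marker *Myh11*, smooth muscle myosin heavy chain, had 1 and 7 UMIs in LIG, and *Des*, desmin, lay below the other cells in both libraries (folds of 0.356 and 0.357). Of the 7 measured genes of a contractile list, *Myl9* was the 1 called high in LIG (folds of 2.43 and 2.88) and *Des* the 1 called low, where 0.757% of all genes were high and 3.45% low. The authors name *Myl9* among the genes enriched in LIG, so nothing is read from that count. The part of contractile transcripts in the levels of the 6 genes was not tested.

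*Acta2* was compared between thinned LIG cells with and without a UMI of *Tac1*, *Tnmd*, *Chodl* or *Mkx*. At E17.5 *Tac1*-positive cells had less *Acta2* than *Tac1*-negative cells, 354 against 671 CPM, a ratio of 0.527 (0.462 to 0.601), and the ratio was 0.499 (0.414 to 0.5996) in suffix 2 and 0.566 (0.467 to 0.6845) in suffix 3. *Tagln* (0.707), *Myl9* (0.823), *Actg2* (0.453) and *Tpm2* (0.742) were lower too. At E15.5 the values were 37.7 against 75.4 CPM from 6 and 97 UMIs, a ratio of 0.501 (0.179 to 1.13), too few to show a difference. *Tac1* UMIs were found in 38.3% (32.7 to 44.2) of the 287 E17.5 cells with an *Acta2* UMI and in 54.4% (49.3 to 59.4) of the 388 without one.

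*Tnmd* went the other way at E17.5, with 616 CPM of *Acta2* in *Tnmd*-positive and 224 in *Tnmd*-negative cells, a ratio of 2.75 (2.26 to 3.39) that was 2.23 in suffix 2 and 3.34 in suffix 3. At E15.5 the ratio was 0.374 (0.2455 to 0.563), from 41 and 62 UMIs. These UMIs came from 45 cells, of which 30 had a *Tnmd* UMI. Split by *Acta2* instead, the E15.5 cells showed no such difference, with *Tnmd* in 66.7% (51.05 to 80) of the cells with an *Acta2* UMI and 63.6% (58.9 to 68.1) of those without, at 652 (523 to 803) and 522.5 CPM (484 to 563). At E15.5 no other contractile gene given *Tnmd* had an interval apart from 1 (*Tagln* 0.915, 0.516 to 1.66, *Myl9* 0.853, 0.696 to 1.05), whereas at E17.5 *Tagln* (1.95), *Myl9* (1.45), *Actg2* (2.59), *Cnn1* (6.42) and *Tpm2* (1.23) were all above it. The difference between the libraries in these ratios was not tested. *Chodl* showed no difference at E17.5, with a ratio of 1.03 (0.910 to 1.165), and *Mkx* a small one, with 1.16 (1.01 to 1.32). Split by *Acta2* instead, the E17.5 cells showed no such difference for *Mkx*. It was found in 26.5% (21.5 to 32.0) of the cells with an *Acta2* UMI and 29.4% (24.9 to 34.2) of those without. For *Chodl* and *Mkx* the ratios of suffix 2 and 3 lay on opposite sides of 1, but the intervals of suffix 2 hold 1. *Chodl* had 1.18 (0.993 to 1.41) in suffix 2 and 0.831 (0.694 to 0.996) in suffix 3, and *Mkx* 0.979 (0.8115 to 1.18) and 1.37 (1.12 to 1.66). In suffix 1 *Acta2* had 8 thinned UMIs over its 32 LIG cells, too few for a ratio.

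Across the 15 clusters, *Tac1* and *Chodl* had the most similar levels at E17.5 among the 15 pairs, with a Pearson r of log2(CPM + 1) of 0.9385 over 15 clusters, against 0.581 at E15.5. *Mkx* and *Tnmd* gave 0.588 and 0.795, *Scx* and *Mkx* 0.725 and 0.668, *Tnmd* and *Chodl* 0.725 and 0.787, and *Tac1* and *Tnc* 0.120 and 0.466. The clusters of a library share its depth and its free RNA, so these values describe the 15 points only. Without LIG *Tac1* and *Chodl* gave 0.854 at E17.5 and 0.411 at E15.5, and *Tnmd* and *Chodl* 0.622 in the E15.5 library and 0.703 in that of E17.5.

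For each gene, the 3 others among 12149 with the most similar levels were ranked by the lower r of the 2 libraries. For *Scx* they were *Adamts8* (0.8085 in the E15.5 library and 0.855 in that of E17.5), *Sox5* (0.795 and 0.778) and *Kcns1* (0.748 and 0.914), and for *Mkx* they were *Cdh3* (0.766 and 0.887), *Rai14* (0.761 and 0.866) and *Zfp521* (0.750 and 0.788). *Cxcl14* was first for both *Tnmd* (0.827 and 0.852) and *Chodl* (0.881 and 0.804), with *Camk4* (0.852 and 0.826) and *Hmga2* (0.800 and 0.797) next for *Tnmd*, and *Kcnn2* (0.761 and 0.783) and *Cpxm2* (0.766 and 0.752) for *Chodl*. *Kcnn2* was also at place 3 for *Tac1* (0.756 and 0.855), after *Gorab* (0.879 and 0.884) and *Rab18* (0.772 and 0.783). *Tnc* had *Actn1* (0.8405 and 0.903), *Crispld2* (0.819 and 0.915) and *Dlx6* (0.809 and 0.888). LIG, for whose levels the 6 genes were chosen, is 1 of the 15 points. Without it, a choice made after seeing the data, *Cxcl14* had 0.796 and 0.830 with *Tnmd* and 0.864 and 0.860 with *Chodl*, while *Kcnn2* had 0.668 and 0.5805 with *Chodl* and 0.651 and 0.726 with *Tac1*.

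Of 28 measured genes of a list of other tendon and ligament matrix genes, 2 were called high in LIG, where 92 of all 12150 genes (0.757%) were, and the median fold was 1.08 in the E15.5 library and 1.20 in that of E17.5, against 0.991 and 0.954 over all 12150 genes. The 2 were *Thbs2*, a matricellular thrombospondin, with 266 and 902 CPM in LIG and folds of 2.17 and 2.44, and *Fbln5*, an elastic fibre protein, with 300.1 and 339 CPM and folds of 2.45 and 3.00. The list was written with earlier results of these data known. The authors also name *Thbs2* among the genes enriched in LIG, so nothing is read from the count. *Thbs4*, a tendon thrombospondin, was below the other cells by 2-fold or more in both libraries, where 419 of the 12150 genes (3.45%) were, but its LIG counts were 5 and 2 UMIs and its E17.5 ratio was 0.279 (0.0330 to 1.05).

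None of the 10 measured genes of a list of other tendon transcription factors passed 2-fold in LIG in both libraries in either direction, nor did any of 7 bHLH partners and inhibitors of scleraxis. Among 10 measured genes of tendon signals none was called high and 1, *Tgfb1*, a growth factor that acts on tendon progenitors, was low, with folds of 0.243 and 0.199, where 0.757% of all genes were high and 3.45% low. *Tgfb3* (3.03 and 1.38), *Fgf18* (1.89 and 2.88) and *Igf1* (2.14 and 1.42), signals chosen after their values were seen, were above the other cells in both libraries but past 2-fold in 1. *Tgfbr2* was above them at E17.5 (1.65), but its E15.5 interval held 1 (1.02, 0.873 to 1.18). *Tgfb2* (0.644 and 0.679) and *Tgfbr3* (0.637 and 0.657) were below the other cells in both libraries. *Bmp4* (2.02) and *Ctgf* (1.16) were above them at E17.5, with E15.5 intervals that held 1 (0.895, 0.669 to 1.18, and 0.737, 0.4795 to 1.09). *Tgfbr1* (1.03 and 0.866) had intervals that held 1 in both.

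The receptors of the *Tac1* peptides were at or near 0 in the labelled cells. *Tacr1*, the receptor of substance P, had 1 UMI in the E15.5 library and 2 in that of E17.5 over all labelled cells, *Tacr2* had 3 and 1, and *Tacr3* had 1 and 0. Of the other precursors of the family, *Tac2* had 12 and 0 UMIs and *Tac4* 1 and 3. Of the 3 measured genes for processing of these peptides, none of them a receptor, 0 were called high or low in LIG, where 0.757% and 3.45% of all genes were. In LIG the sensory neuron markers *Scn9a* and *Trpv1* had 0 UMIs in both libraries, and *Calca* and *Prph* had 39 and 9 in the E15.5 library and 51 and 0 in that of E17.5. *Calca* was higher in LIG than in the other cells at E15.5, with 9.78 against 2.87 CPM, and lower at E17.5, with 5.54 against 9.055.

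Relatives of the 6 genes were compared in the same way. *Cnmd*, chondromodulin and the nearest relative of *Tnmd*, had LIG folds of 1.33 and 0.528, and *Layn*, a lectin related to *Chodl*, 0.254 and 0.586, from 2 and 11 UMIs. Of the Iroquois genes related to *Mkx*, *Irx3* had folds of 0.762 and 0.791, *Irx5* 0.984 and 1.16 and *Irx1* 0.1955 and 0.113, while *Irx2*, *Irx4* and *Irx6* fell short of 50 UMIs in a library. *Tcf15*, a bHLH gene related to *Scx*, had 22 UMIs in each library. Of 5 measured relatives 0 were called high in LIG and *Irx1* was called low, where 0.757% and 3.45% of all genes were. In the tenascin family, *Tnxb* was low in LIG, with folds of 0.240 and 0.136, *Tnn* had 0.720 and 0.439 and *Tnr* had 4 UMIs in each library. None of 9 measured genes of the tenascin family and its receptors was called high in LIG, and *Tnxb* was the 1 called low.

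Markers of the other cell types that a suture could hold were summed in LIG and in the other labelled cells. Of 6 skeletal muscle markers 3 had UMIs in the E15.5 library and 2 in that of E17.5, with *Myod1*, *Myf5* and *Pax7* at 0 in both and a summed level of 10.3 and 5.21 CPM, most of it *Tnnt1*. The 5 osteoblast markers summed to 57.4 and 160.7 CPM against 1987 and 2465 in the other cells, led by *Ibsp*. The 6 chondrocyte markers summed to 426 and 129.7 CPM against 389.6 and 144.1, led by *Col2a1* in the E15.5 library and *Acan* in that of E17.5, and the 4 red blood cell markers to 10483 and 507 CPM against 9387 and 486, led by *Hbb-bs*. Myeloid markers summed to 60.2 and 184 CPM against 50.2 and 136, led by *Lyz2*, which was higher in LIG (20.3 against 10.3 and 62.45 against 21.3 CPM) while the other 5 had folds of 0.633 to 1.16 in the E15.5 library and 0.887 to 1.17 in that of E17.5. Markers of endothelial cells summed to 11.5 and 7.385 CPM. Pericyte markers summed to 122.8 and 106.8 CPM against 126.1 and 131.9, led by *Pdgfrb*, and osteoclast markers to 237.9 and 413.5 CPM against 231.3 and 343.3, led by *Ctsk*. Glial markers summed to 2.76 and 4.89 CPM, neuronal ones to 2.26 and 5.10, lymphocyte ones to 0.251 and 0.760 and keratinocyte ones to 1.504 and 0.109. Mast cell markers were higher in LIG at E15.5, with 164 against 92.8 CPM, and near the other cells at E17.5, with 31.9 against 28.45. The 7 LIG markers, 5 of which are genes described here, summed to 1943 and 4173 CPM against 819 and 1741. *Bgn* led them, with 921 and 1807 CPM against 592 and 1183. These markers were chosen as genes of LIG, so their height there is part of the choice and checks nothing.

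The sequences just upstream of the genes are given because *Tnmd*, *Chodl* and *Tac1* were high together in LIG and scleraxis is a bHLH factor, a class that binds the E-box CANNTG, which reads the same on both strands. RefSeq promoters (GRCm38.p6) matched 4 of the 6 genes and none was held for *Scx* and *Mkx*. Only bases before the first annotated start in RefSeq and GENCODE are printed, 5′ to 3′ on the strand of the gene, with each CANNTG in capitals. They are chrX:133850758-133850979 (plus strand, 222 bases) for *Tnmd*, chr6:7554811-7554878 (plus, 68 bases) for *Tac1*, chr16:78930698-78930947 (plus, 250 bases) for *Chodl* and chr4:64047016-64047265 (minus, 250 bases) for *Tnc*.
Tnmd: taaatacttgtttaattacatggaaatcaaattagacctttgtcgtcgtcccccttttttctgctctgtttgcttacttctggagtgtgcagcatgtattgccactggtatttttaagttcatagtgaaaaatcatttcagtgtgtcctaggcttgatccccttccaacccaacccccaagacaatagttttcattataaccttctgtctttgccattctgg
Tac1: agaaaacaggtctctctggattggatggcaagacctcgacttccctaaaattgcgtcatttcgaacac
Chodl: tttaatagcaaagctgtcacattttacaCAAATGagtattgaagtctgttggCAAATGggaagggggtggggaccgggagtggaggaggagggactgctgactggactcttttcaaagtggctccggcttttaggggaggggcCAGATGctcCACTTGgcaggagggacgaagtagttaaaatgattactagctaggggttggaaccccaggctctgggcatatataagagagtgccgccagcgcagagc
Tnc: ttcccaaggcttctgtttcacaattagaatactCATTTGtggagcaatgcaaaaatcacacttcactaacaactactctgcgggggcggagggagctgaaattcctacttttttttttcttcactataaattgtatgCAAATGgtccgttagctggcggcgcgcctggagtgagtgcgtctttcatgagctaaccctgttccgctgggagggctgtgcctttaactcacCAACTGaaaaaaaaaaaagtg
*Chodl* held 4 CANNTG matches, *Tnc* 3, and *Tnmd* and *Tac1* 0. Of all RefSeq mouse promoters, 66.2% held at least 1 in windows of 250 bases, 62.4% in windows of 222 bases and 26.0% in windows of 68 bases. A match describes the letters of the window only.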

How the data were processed

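The mouse coronal suture was measured by single-cell RNA sequencing (10x 3′ v2) in 1 deposited sample each at E15.5 (1 library) and E17.5 (3 batches joined by the authors). The deposited matrices hold raw UMI counts of 31053 and 27998 genes, which the authors made with Cell Ranger on mm10 after FastQC 0.11.7 and MultiQC 0.9 and clustered with Seurat 3.2.0, and the deposited table gives the cluster of each cell. Labelled cells were kept as deposited. The 93 labelled E15.5 cells outside 1000 UMIs, 1000 genes, 7.5% mitochondrial or 3% hemoglobin UMIs were left out in an alternative. Labelled cells held 552 to 30651 UMIs at E15.5 and 3026 to 44830 at E17.5.

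UMIs were summed per cluster and divided by all UMIs of its cells. Cells were thinned without replacement to 3000 UMIs. The 2875 and 1937 unlabelled cells within the limits were clustered (Leiden, 2000 genes, 30 components, 30 neighbours, resolution 1) and named by markers. Scrublet's own threshold called 415 of 8210 E15.5 cells but 9, 28 and 4 in the 3 E17.5 suffixes, whose cells were gated against doublets by FACS, and the alternative left out cells at or above percentile 94 of the scores. The 6 genes and the lists were chosen with earlier results of these data known. The genes named were the 6 genes, the genes of the lists past 2-fold, relatives and receptors, the markers at 0 or most abundant, and the 3 most alike to each of the 6, and others named were chosen after their values were seen. No test was made, since E15.5 has 1 library. The intervals of folds were run on simulated Poisson counts with true folds of 4 and 0.25 and covered these in 94% to 99% of genes. Those counts hold no spread between cells, so the simulation cannot show whether the intervals are too narrow for it. The binomial intervals were not simulated. Python 3.11.15, NumPy 2.4.6, pandas 2.3.3, SciPy 1.17.1, Scanpy 1.11.5, anndata 0.12.19, igraph 0.11.9 and matplotlib 3.10.9 were used.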

Additional observations from a re-analysis of the deposited data

Results flagged for a closer look

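Cells without a cluster label also carried UMIs of the 6 genes, in data the comparisons of clusters do not use (the myeloid-like ones served as background). At E15.5 and E17.5 their levels were 4.30 and 7.705 CPM for *Scx*, 5.49 and 16.04 for *Mkx*, 21.05 and 49.6 for *Tnmd*, 31.6 and 13.7 for *Tac1*, 1.64 and 9.25 for *Chodl*, and 12.7 and 213 for *Tnc*. *Tac1* at E15.5 was above the interval of LIG in 2 groups of these cells. It had 84.3 CPM in 306 unnamed cells led by *Pcp4*, *Prg4* and *Pdzrn4*, and 155 CPM in 256 cells led by *Cytl1*, *Fam180a* and *Tac1* itself. The 256 cells were named chondrocyte-like, with 5 chondrocyte markers past 2-fold, though 0 of these were among their 10 leading genes. *Tnc* at E17.5 had 575 CPM, above LIG, in 198 cells with a median of 25841.5 UMIs, led by *Calm5*, *Cxcl14* and *Chodl*. The source of these cells was not tested.

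The ratio of *Acta2* in LIG cells with over without a *Tnmd* UMI was 0.374 at E15.5 and 2.75 at E17.5, on opposite sides of 1, and the difference was not tested. The E15.5 value rests on 45 cells with an *Acta2* UMI, 66.7% of which had a *Tnmd* UMI, against 63.6% of the others, and *Tagln* had 0.915 and 1.95. Some clusters had a lower level at E17.5 while others had a higher one. These ratios were 0.5505 for *Mkx* in MG3, 0.666 and 0.730 for *Tnmd* in OG1 and OG3, 0.579 and 0.460 for *Tac1* in EC2 and EC3, and 0.567 and 0.669 for *Chodl* in OG2 and PO1. The differences between clusters were not tested.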

How the results depend on the processing

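The 4 genes called high in LIG were the same 4 under another scaling, the mean over cells, the authors' cell limits, doublet removal, thinning, and each suffix alone or left out. *Scx* made them 5 against the median of the other clusters, with a limit of 1.5, and without repeated barcodes, and against the highest other cluster they were 2. With a limit of 1.5 the tendon matrix genes went from 2 to 5, by construction. They were 4 against the median of the other clusters (*Thbs2*, *Fmod*, *Col11a1* and *Fbln5*) and 0 against the highest, and the cause was not tested.

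The share of LIG cells with at least 3 of the 6 genes depended on detection. At E15.5 it was 10.8% in thinned cells, 10.9% with at least 2 UMIs as detected and 26.0% without *Tnc*, and at E17.5 it was 59.1%, 78.1% and 82.8%. Asking for 2 UMIs or counting 5 genes lowers it by construction, and thinning takes UMIs from each cell and leaves out shallow ones. Under the other alternatives it was 33.55% to 34.4% and 93.75% to 96.2%. Leaving out *Tnc*, leaving out repeated barcodes, using the highest other cluster and, for the tendon matrix genes, the median and leaving out a suffix were chosen after seeing the data.

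Of 90 folds under alternatives, 56 stayed within the interval of the main value, 34 left it, 0 crossed 1 and 3 crossed 2. Of 48 ratios between the libraries 44 stayed within it, and *Tnmd* fell below 1, to 0.7095, in suffix 1 alone. Of 66 shares 37 stayed within it. Of the 6 genes *Scx* had the fewest UMIs in LIG at E15.5, 46.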
